A study of Mus musculus with 12 samples.

Results

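Adrenergic, muscarinic and serotonin receptors let the heart respond to noradrenaline, acetylcholine and serotonin, and they were examined here in whole mouse hearts, at postnatal day 8 by the stage label. The list holds 9 receptor genes, Adrb1, Adrb3, Adra1a, Adra1b, Adra2a, Chrm2, Htr1b, Htr2b and Htr4. Members were the probes that the platform annotation assigns to these symbols, in any letter case. The annotation used here named 6 probes for 5 of the 9 genes, out of 26423 probes in all. Adra1b, Htr1b, Htr2b and Htr4 had 1 probe each (mMC017196, mMC017893, mMC018454 and PH_mM_0001259), and Chrm2 had 2 (PH_mM_0009151 and the dimmer PH_mM_0015604). Adrb1, Adrb3, Adra1a and Adra2a had no named probe and were not analysed here, so the adrenergic family is seen only through Adra1b.

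All 9 receptors signal through G proteins. Beta-adrenergic receptors and Htr4 couple to the stimulatory G protein, which activates adenylyl cyclase and raises cyclic AMP. Chrm2, Htr1b and Adra2a couple to inhibitory G proteins, which lower cyclic AMP. Adra1a, Adra1b and Htr2b couple to the Gq class, which activates phospholipase C. In heart muscle these routes set the rate and force of the beat and feed into growth.

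The study compared the hearts of a Salvador conditional mutant, labelled Salv CKO, with hearts labelled Control and wild-type, all on a mixed C57bl/6 and 129 background. Salvador (Sav1) is the scaffold of the Hippo kinases, and the comparison asked which genes depend on that pathway. There were 2 biological samples in each group, and each was hybridised to 3 technical arrays, 12 arrays in all. No source used here names the Cre driver, the deleted part of the gene or any pooling of hearts. The labels name the 2 samples of a group as biological replicates without saying whether they were separate animals, so a p-value speaks only of how far these samples spread.

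Several facts of the whole series bear on the receptor values. Sav1 itself did not follow the labels, with log2 levels of 8.06 and 8.52 under the Salv CKO label and of 8.75 and 8.08 under the Control label, so every direction below is that of the labels. All 6 measured genes of the 12 listed heart muscle markers were above background on every array. Among the 8534 probes above background on every array, the sample farthest from the mean of the other 3 was Salv CKO 1 in 20.6% of cases, Salv CKO 2 in 12.4%, Control 1 in 49.4% and Control 2 in 17.6%. Scgb1a1, an airway secretory gene, stood at log2 levels of 8.14 and 4.07 in the Salv CKO samples and at 3.68 and 11.19 in the controls. The stage label and the extraction protocol give postnatal day 8, while the source label calls the tissue embryonic heart, and no source used here settles this conflict. In RNA from whole hearts, fewer cells of a type and less RNA per cell cannot be told apart.

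Values are given as deposited intensities, the brightness of a probe after the authors' background subtraction, and as log2 levels after quantile normalization with 1 added. Probe brightness depends on the probe, so no receptor's level is set against another's. The background level was read on each array from 592 probes for olfactory and vomeronasal receptors, genes of the nose. Their 95th percentile, 98.2 to 223 in intensity across the arrays, was taken as the level a probe had to pass, and their median was 6 to 10.

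By this measure only the brighter Chrm2 probe was above background on all 12 arrays. The Adra1b probe passed the 95th percentile on 0 of 12 arrays and the 90th on 9. The Htr2b probe and the dimmer Chrm2 probe passed the median of the nose receptors on all 12 arrays and the 90th percentile on none. Htr1b passed that median on 10 arrays and missed it on 2, both of them control arrays. Htr4 passed it on 0 of 12. With both groups under the background level, no fold is given for Adra1b, Htr1b, Htr2b, Htr4 or the dimmer Chrm2 probe, and their log2 differences are read as differences between dim signals. A low signal here does not show that the receptor is absent from these hearts.

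**Figure D1:**
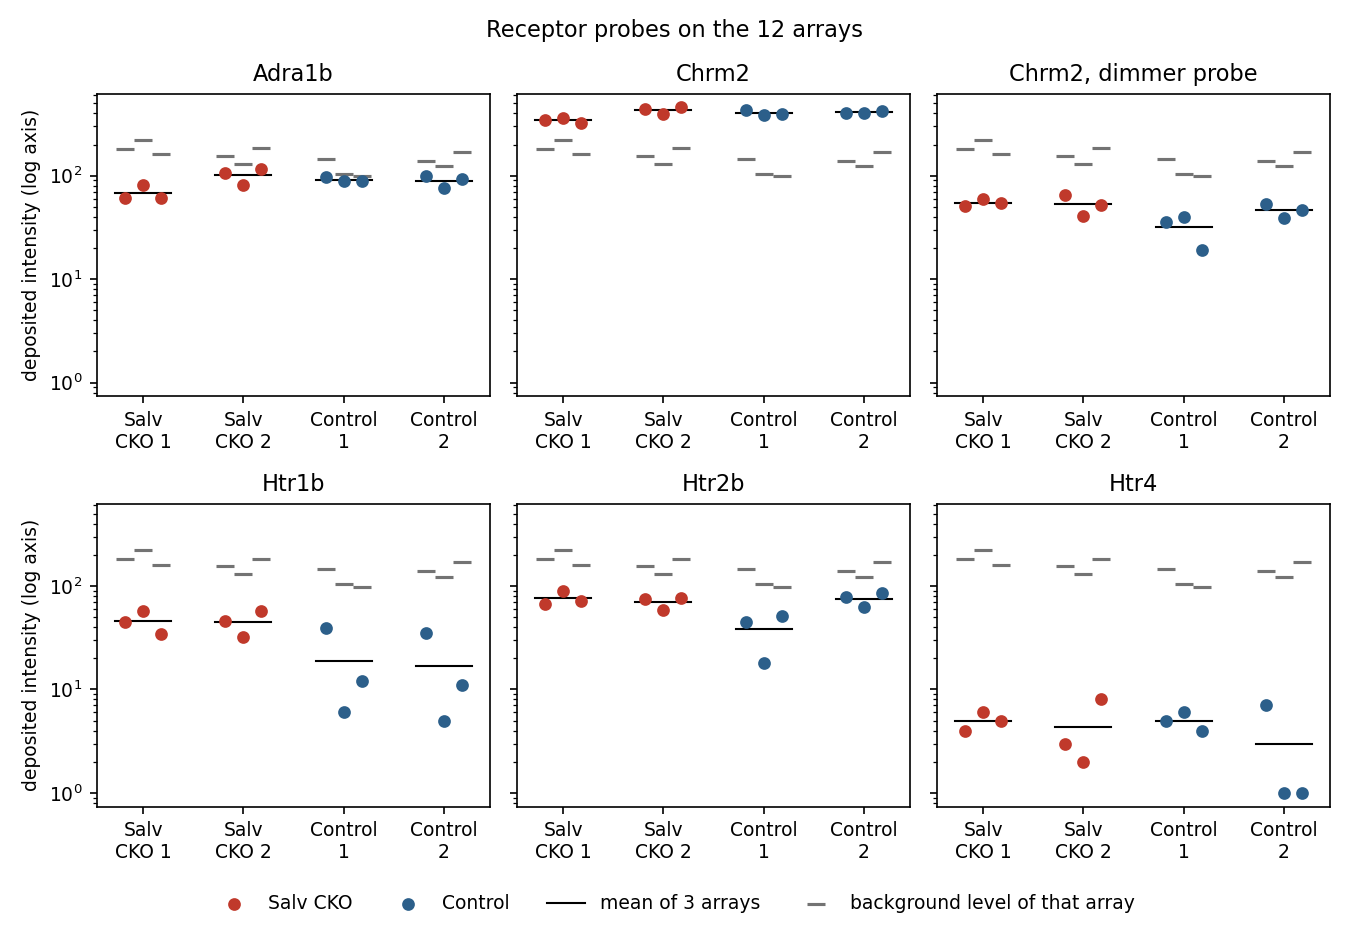
Deposited intensity (log axis) of the 6 receptor probes on each of the 12 arrays, with Salv CKO samples in red left of the controls in blue, a black line for the mean of 3 technical arrays and a grey mark for the background level of each array. The brighter Chrm2 probe lies above the grey marks on every array, and in both controls the Htr1b points spread widely, from 6 to 39 and from 5 to 35.

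The promoters of 3 receptors are shown so that they can be read beside the values. Chrm2 is the receptor above background, Htr1b has the largest difference between the groups, and Htr2b is lowest in a single control. The windows run from 250 bases before to 50 after an annotated start in RefSeq on GRCm38.p6, 5′ to 3′ on the strand of the gene. Chrm2 is at chr6:36387834-36388133 on the plus strand. Htr1b is at chr9:81633783-81634082 and Htr2b at chr1:86111931-86112230, both on the minus strand. The starts used for Chrm2 and Htr2b lie inside the genes, which span chr6:36387991-36528638 and chr1:86097546-86116231. No window at the outer end of the Htr2b gene was read. Capitals mark CATTCC or its complement GGAATG, the core of the element bound by the TEAD factors, through which the Hippo pathway acts on genes.
Chrm2: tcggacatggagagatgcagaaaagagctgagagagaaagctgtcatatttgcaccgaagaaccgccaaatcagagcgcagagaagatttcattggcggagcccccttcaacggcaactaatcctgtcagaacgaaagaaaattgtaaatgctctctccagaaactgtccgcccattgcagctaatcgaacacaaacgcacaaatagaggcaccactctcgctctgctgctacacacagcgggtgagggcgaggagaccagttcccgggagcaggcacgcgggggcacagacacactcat
Htr1b: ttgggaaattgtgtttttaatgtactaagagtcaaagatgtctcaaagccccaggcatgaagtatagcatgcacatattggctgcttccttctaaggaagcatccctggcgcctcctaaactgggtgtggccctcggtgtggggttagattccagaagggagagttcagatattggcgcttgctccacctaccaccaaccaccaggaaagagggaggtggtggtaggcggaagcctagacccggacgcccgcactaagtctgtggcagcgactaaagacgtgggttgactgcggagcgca
Htr2b: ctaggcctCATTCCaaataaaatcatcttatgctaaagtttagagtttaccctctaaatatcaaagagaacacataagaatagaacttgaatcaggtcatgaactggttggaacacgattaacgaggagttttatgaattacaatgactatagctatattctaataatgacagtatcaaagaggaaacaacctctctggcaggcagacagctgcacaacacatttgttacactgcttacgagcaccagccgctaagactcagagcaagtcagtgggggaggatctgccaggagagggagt
The Htr2b window holds 1 such match, starting at position -242 from the start site used, and the Chrm2 and Htr1b windows hold 0. Of all 32851 promoter windows of this length, 14.7% hold the motif on either strand. TGACG or its complement CGTCA, the core of the cyclic AMP response element, was in 0 of these 3 windows and in 20.8% of all windows. The windows of Adra1b were read too and are not shown. They hold 0 matches to either motif. A match describes the letters only, and none of the measurements here reads binding.

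Across all probes, 0 of 26423 (0%) passed an adjusted p of 0.05 between Salv CKO and Control (limma, Benjamini-Hochberg, smallest adjusted p = 0.999), and 0 of the 6 receptor probes passed. At an unadjusted p under 0.05 there was 1 receptor probe of 6, that of Htr1b, against 3.96% of all probes. The groups did not overlap for 3 of the 6 receptor probes, Adra1b, the brighter Chrm2 probe and Htr1b, against 30.6% of all probes. This count depended on the normalization. In mean deposited intensity, a comparison added after seeing the data, the groups did not overlap for 2 of the 6, Htr1b and the dimmer Chrm2 probe, against 26.7% of all probes, and Htr1b was the only receptor probe in both counts. Taking the brightest probe of each gene, 3 of 5 receptors had a positive difference and the median difference was 0.071 on the log2 scale, against -0.010 over all probes. That median is the value of Htr4, the dimmest receptor probe, and the sign of the median is not read. The median was -0.0072 with 16 added in place of 1. Without Control 1 the median was -0.21, there the value of Htr2b, while Htr4 differed by 0.47. With 2 samples against 2, an exact permutation test of a single gene cannot go below p = 0.333.

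**Figure D2:**
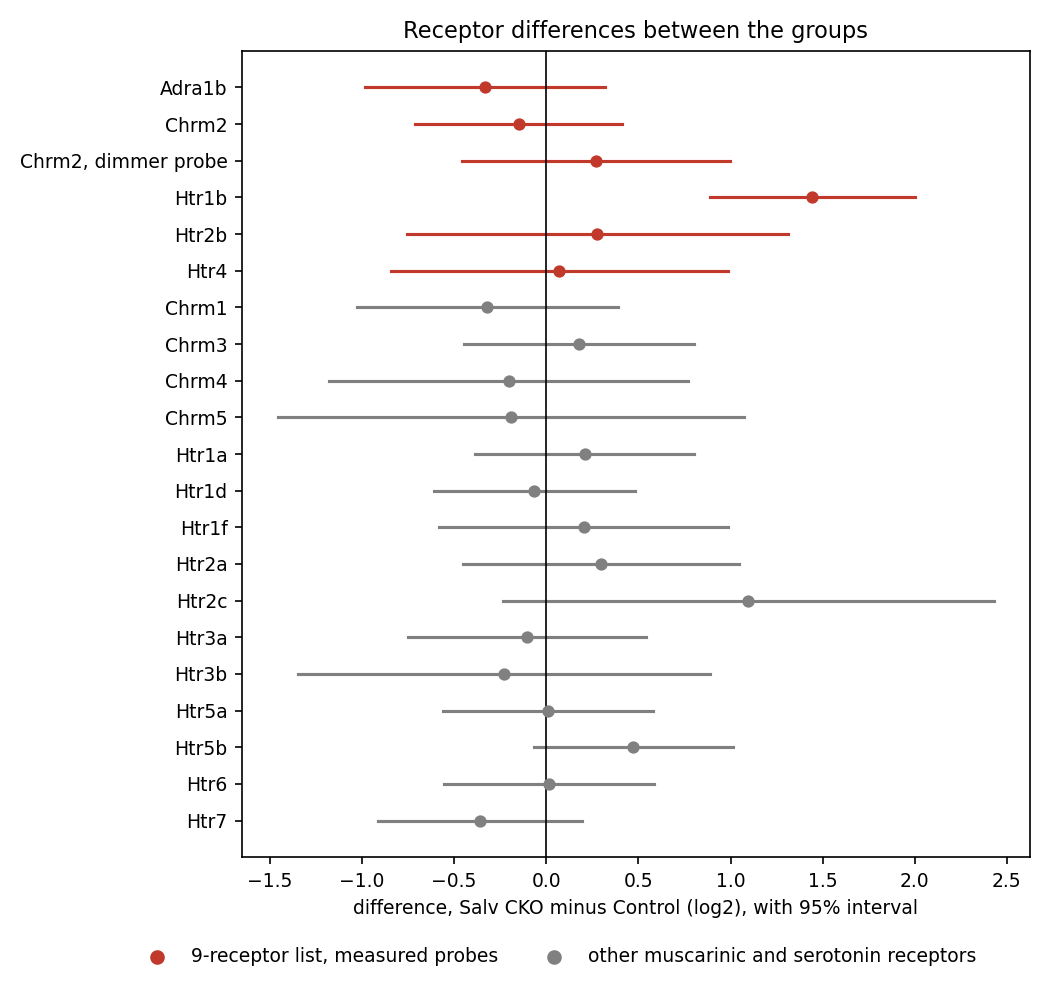
Difference between Salv CKO and Control (log2, horizontal axis) with its 95% interval from limma, for the 6 receptor probes in red and for 15 other muscarinic and serotonin receptors in grey. Of the receptor probes only Htr1b, at 1.44, has an interval away from 0 before adjustment for the number of probes tested.

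Chrm2 encodes the main muscarinic receptor of the heart, through which the vagus nerve slows the beat. Its brighter probe read 345, 361 and 321 in intensity across Salv CKO 1 and 439, 391 and 458 across Salv CKO 2. In the controls it had 427, 388 and 391 in Control 1 and 402, 405 and 417 in Control 2. The deposited values of Salv CKO 1 were thus the lowest and those of Salv CKO 2 reached the highest.

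After normalization the log2 levels of Chrm2 were 8.60 and 8.52 in Salv CKO 1 and 2, and the controls stood at 8.63 and 8.80. The groups did not overlap on this scale, but Salv CKO 1 lay just below Control 1. The place of Salv CKO 2 depended on the normalization: it had the highest mean deposited intensity and the lowest normalized level. The difference was -0.15 ± 0.21 (SE, limma, adjusted p = 0.999), a ratio of 0.902, with a 95% interval from -0.71 to 0.41. The group means were 8.56 ± 0.058 in Salv CKO and 8.71 ± 0.12 in Control (SD, n = 2 each).

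Technical arrays agreed closely for this probe, with an SD of 0.051 on the log2 scale, below that of all but 5.46% of probes. The dimmer Chrm2 probe gave the opposite sign, 0.27 ± 0.28 (SE, limma, adjusted p = 0.999). Its intensities averaged 54.7 and 52.7 in the Salv CKO samples, against 31.7 and 46.3 in the controls. Without Control 1 the difference of the dimmer probe was 0.0051. The mean over both probes differed by 0.060, so the sign for Chrm2 rests on which probe is read.

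By centred log2 levels over the 12 arrays, the gene nearest to the brighter Chrm2 probe was Sec63, a gene of protein transport into the endoplasmic reticulum. The Euclidean distance between their centred log2 levels was 0.119, against a median of 0.708 over 7192 other genes above background. Sec63 was picked for the smallest distance, so its place below the median is fixed by that choice. Levels were not scaled, so a small distance can mean only that both vary little, and shared variation was not tested. Sec63 stood at 10.68 and 10.63 in the Salv CKO samples and at 10.71 and 10.87 in the controls. No other receptor had a probe above background on every array, so no such gene is given for them.

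Atrial and nodal cells carry much of the heart's Chrm2. The 10 measured of 12 atrial and nodal markers summed to normalized intensities of 38466 and 41432 in the Salv CKO samples. The controls gave 43433 and 39506, so the sums overlapped. These sums rest mostly on Nppa and Sln, which ran in opposite directions, at -0.15 and 0.27, each without overlap. Singly, the groups did not overlap for 5 of the 10, against 30.6% of all probes. Hcn4, the pacemaker channel, Isl1, Shox2 and Bmp10 were below background on every array. The part of these markers in the Chrm2 values was not tested.

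Adra1b encodes a receptor for noradrenaline that heart muscle cells use for growth and contraction signals. Its intensities were 61, 82 and 61 for Salv CKO 1 and 105, 82 and 115 for Salv CKO 2. The arrays of Control 1 gave 98, 89 and 88, and those of Control 2 gave 99, 76 and 93. Salv CKO 1 was the low sample, and Salv CKO 2 had the highest single array.

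The log2 levels of Adra1b were 6.07 and 6.49 in Salv CKO 1 and 2, and 6.64 and 6.58 in Control 1 and 2. The 3 arrays of Salv CKO 1, from 5.94 to 6.21, all lay below the other 9, of which the lowest was 6.38. The group difference was -0.33 ± 0.25 (SE, limma, adjusted p = 0.999), with a 95% interval from -0.98 to 0.32. It was -0.12 without Salv CKO 1 and -0.54 without Salv CKO 2, so its size rested on Salv CKO 1. The sign was negative in every setting tried, but in mean deposited intensity the groups overlapped, at 68 and 100.7 in the Salv CKO samples against 91.7 and 89.3 in the controls. The summed normalized intensity of 12 fat markers, tissue that carries adrenergic receptors too, was 21459 and 16625 in the Salv CKO samples and 27904 and 23283 in the controls, and its part in the Adra1b values was not tested.

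Htr1b encodes a serotonin receptor known from nerve endings, where it restrains transmitter release, and from vascular smooth muscle. The 3 arrays of Salv CKO 1 read 45, 57 and 34 in intensity, and those of Salv CKO 2 read 46, 32 and 57. In the controls they were 39, 6 and 12 in Control 1 and 35, 5 and 11 in Control 2. The first technical array of each control therefore lay within the range of the Salv CKO arrays, and the other 4 control arrays lay well below it.

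The log2 levels of Htr1b averaged 5.44 and 5.34 in the Salv CKO samples and 4.01 and 3.89 in the controls. The difference was 1.44 ± 0.21 (SE, limma, unadjusted p = 0.00139, adjusted p = 0.999), with a 95% interval from 0.89 to 2.00. The sample means fell close together within each group, with SDs of 0.073 in Salv CKO and 0.085 in Control (n = 2 each). Within a control the arrays ranged far wider, from 2.91 to 5.18 in Control 1 and from 2.86 to 5.21 in Control 2.

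The technical SD of the Htr1b probe was thus 0.846 on the log2 scale, beside an SD of 0.079 between the samples of a group. It was larger than that of 86.7% of all probes, and of 96.0% of the probes of similar mean brightness (2643 probes). Over all probes, the first array of both controls exceeded the other 4 control arrays in intensity in 6.99% of cases. Among the 2643 probes of similar mean brightness the share was 9.91%. The margin was more than 1 on the normalized log2 scale for 25 of all probes, or 0.0946%, and 3 of these were of similar brightness. This pattern was read from the Htr1b values themselves, so the Htr1b probe is among them by construction.

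With the median of the technical arrays the Htr1b difference was 1.68, and with 16 added in place of 1 it was 0.83. With 50 added it was 0.44, so the size depends on the added constant at these intensities. The adjusted p did not fall below 0.352 in any setting (limma). Every setting that kept the probe gave a positive difference, and leaving out any 1 sample left it at 1.38 or more. Smooth muscle and pericyte markers, 10 of 11 measured, summed to 12913 and 12731 in the Salv CKO samples against 13448 and 13040 in the controls. These sums rest mostly on a few bright probes. Of the 7 markers above background on every array, 4 had a positive difference and the median was 0.027. Tagln, Cnn1 and Lmod1, below background on every array, were lower in Salv CKO at an unadjusted p under 0.05 (limma). These are 3 of the 10, against 3.96% of all probes. The part of smooth muscle and pericyte markers in the Htr1b values was not tested.

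Htr2b encodes a Gq-coupled serotonin receptor that mice need for normal heart development and that valve and connective tissue cells carry. Its intensities were 67, 90 and 72 in Salv CKO 1 and 75, 59 and 77 in Salv CKO 2. Control 1 gave 45, 18 and 51, and Control 2 gave 78, 63 and 85. Control 1 was below every array of the other 3 samples, and Control 2 was as high as the Salv CKO samples.

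The log2 levels of Htr2b were 6.25 and 6.00 in the Salv CKO samples, with Control 1 at 5.35 and Control 2 at 6.34. The groups overlapped, and the difference was 0.28 ± 0.39 (SE, limma, adjusted p = 0.999), with a 95% interval from -0.76 to 1.31. Without Control 1 it was -0.21, and without Control 2 it was 0.77. Fibroblast and valve markers, with all 11 measured, summed to 90935 and 95190 in the Salv CKO samples against 91666 and 96575 in the controls. These sums rest mostly on a few bright probes. Singly, the groups did not overlap for 4 of the 11, all lower in Salv CKO, against 30.6% of all probes. None passed (limma, 1 at an unadjusted p under 0.05, against 3.96% of all probes). The part of these markers in the Htr2b values was not tested.

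Htr4 encodes a serotonin receptor that drives cyclic AMP and is known from human atria. Its intensities were from 2 to 8 in the Salv CKO samples and from 1 to 7 in the controls. No array passed the median of the nose receptors, so these values carry no order. The difference of 0.071 ± 0.35 (SE, limma, adjusted p = 1.00) is reported only for completeness.

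The 4 samples were also compared over the 12 arrays by limma's F test, ignoring the labels. It sets the spread between samples against that of technical arrays alone, so ordinary variation between samples can pass it. Of the 6 receptor probes, 3 passed an adjusted p of 0.05, against 46.2% of all probes. These were Adra1b (adjusted p = 0.00239), the brighter Chrm2 probe (adjusted p = 0.0124) and Htr2b (adjusted p = 0.0285). The sample farthest from the rest was Salv CKO 1 for Adra1b, Control 2 for Chrm2 and Control 1 for Htr2b, and the probes of Adra1b and Htr2b were above background on 0 of 12 arrays.

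Htr1b did not pass this F test (limma, adjusted p = 0.122), nor did the dimmer Chrm2 probe (adjusted p = 0.114) or Htr4 (adjusted p = 0.559). The receptor with the largest difference between the groups was therefore one whose 4 samples could not be told apart by the spread of their own arrays. With 50 added before the log, Htr1b passed (limma F test, adjusted p = 0.0354), and with 16 it did not (0.0620). Without normalization Adra1b did not pass (adjusted p = 0.0689). Calls were also lost when single samples were left out. The share of all probes passing fell too, from 46.2% to between 24.3% and 41.1%. A lost call therefore need not rest on the sample left out. Adra1b was lost without Salv CKO 1 (0.376), and Chrm2 without Salv CKO 2 (0.0701) or Control 2 (0.200). Htr2b was lost without Salv CKO 1 (0.0573), Control 1 (0.0640) or Control 2 (0.0760).

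Of 19 other adrenergic, muscarinic and serotonin receptors listed, 15 had a named probe, none of them adrenergic. All 15 were dim, with 0 above background on every array, and 0 passed between the groups (limma, 0 also at an unadjusted p under 0.05). Their median difference was 0.0080, with 8 of 15 positive. The groups did not overlap for 5 of the 15, against 30.6% of all probes. By the F test 3 of the 15 differed between samples, against 46.2% of all probes: Chrm3 (limma, adjusted p = 0.0433), Htr2c (0.0282) and Htr7 (0.0398). Htr5b and Htr2c had the largest positive differences among those not overlapping, 0.47 and 1.10, at mean intensities of at most 15.

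The genes that supply and pass on the receptors' signals were read from lists of 170 genes, of which 144 were measured. None passed between the groups (limma, 2 at an unadjusted p under 0.05, against 3.96% of all probes). Of the 144, 59 differed in the positive direction, against 12835 of all 26423 probes. Their median difference was -0.067, against -0.010 over all probes. Of the 71 above background on every array, 25 had a positive difference, against 4236 of all 8534 probes this bright. The groups did not overlap for 19 of the 71, against 31.4% of all probes this bright. By the F test 52 of the 71 differed between the 4 samples, against 73.3% of all probes this bright. Control 1 was the farthest sample for 32 of these 71 genes (45.1%), near its share among all bright probes.

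Among transmitter genes, 18 of 19 were measured and 5 were above background on every array. Ddc, which makes dopamine and serotonin from their precursors, had log2 levels of 11.02 and 10.90 in the Salv CKO samples against 10.63 and 9.82 in the controls (0.73 ± 0.34, SE). Dbh, which turns dopamine into noradrenaline, had deposited intensities of 417 and 604, with 267 and 403 in the controls (log2 difference 0.53 ± 0.31, SE). Bche, an enzyme that breaks down choline esters, had log2 levels of 10.26 and 10.45 against 10.68 and 11.32 in the controls (-0.65 ± 0.30, SE). The groups did not overlap for these 3 genes, and none passed (limma, adjusted p = 0.999). They were named for the smallest unadjusted p among the 5, which favours groups that do not overlap. Of all 18 measured, the groups did not overlap for 4, against 30.6% of all probes.

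Of 15 listed sympathetic neuron and glia markers 11 were measured. Their summed intensity overlapped between the groups, at 4681 and 5031 in the Salv CKO samples, against 5547 and 4486 in the controls. Single markers did not all overlap: the groups were apart for 5 of the 11, higher in Salv CKO for Hand2 and Dbh and lower for S100b, Uchl1 and Prph, against 30.6% of all probes. None passed (limma, S100b alone at an unadjusted p under 0.05, against 3.96% of all probes). Th, the first enzyme of catecholamine synthesis, and Slc18a2, the vesicle transporter, were below background on every array, as was Chat, the acetylcholine enzyme. Th differed by -0.095 ± 0.25 (SE), and Hand2, a transcription factor of heart and sympathetic neurons, by 0.58 ± 0.29 (limma, adjusted p = 0.999 for both).

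Of 28 G protein subunit genes 26 were measured, 7 with a positive difference. Gnas, the stimulatory alpha subunit, differed by -0.0031 ± 0.22 and Gnaq, the alpha subunit used by Adra1b and Htr2b, by -0.031 ± 0.25 (SE). The inhibitory subunit genes Gnai2 and Gnai1 differed by 0.16 and -0.15, and Gng11 by -0.19. Of the phospholipase C genes that Gq drives, Plcb3 had log2 levels of 8.58 and 8.70 in the Salv CKO samples, against 9.40 and 8.81 in the controls, a difference of -0.47 with Control 1 apart from the other 3 samples. Plcb1 differed by -0.18. Adenylyl cyclase genes had no named probe and were not analysed here.

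Phosphodiesterases, which remove cyclic AMP and cyclic GMP, had 3 of 15 positive differences. Pde4d had 9.43 and 10.01 in the Salv CKO samples, against 10.34 and 9.99 in the controls, and Pde5a had 9.38 and 9.89 against 10.16 and 9.83 in the controls. In both genes Salv CKO 1 was low and Control 1 high, with the remaining samples close together. Pde7a ran the other way, at 8.24 and 7.71 in the Salv CKO samples against 7.20 and 7.66 in the controls. The 2 other probes of Pde4d differed by -0.090 and 0.0015, where the brightest differed by -0.45.

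Among the cyclic AMP dependent kinase genes and their anchors, 18 of 18 were measured and 8 differed in the positive direction. Akap7, Prkar2b and Akap1 differed by -0.27, -0.38 and 0.34, where the second probe of Akap7 differed by 0.22. Prkar2b was low in Salv CKO 2 alone, at 9.27 against 9.88 to 10.08 in the other samples. Akap1 was low in Control 1 alone, at 9.69 against 10.40 to 10.47 in the others.

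Receptor kinases, arrestins and RGS proteins, which end receptor signalling, were all 22 measured, with 9 positive differences. Grk2, the main kinase that desensitises beta-adrenergic receptors in the heart, had levels of 9.20 and 9.29 in the Salv CKO samples, against 9.84 and 9.32 in the controls. Grk6 differed by -0.32 and Grk5 by 0.44, and Grk5 was low in Control 1 alone, at 7.52. Of the effectors in heart muscle, 16 of 20 were measured and 7 differed in the positive direction. Ppp1r1a, an inhibitor of protein phosphatase that prolongs beta-adrenergic signals, had 11.02 and 10.96 against 10.64 and 10.67 in the controls (0.34 ± 0.21, SE, limma, adjusted p = 0.999). Hcn2 and Kcnj5, channels that set the beat, differed by -0.35 and -0.22. Of 13 dopamine, adenosine and histamine receptors, a separate list, 10 were measured and 1 was above background on every array. This was Hrh3, a histamine receptor, which differed by 0.13.

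**Figure D3:**
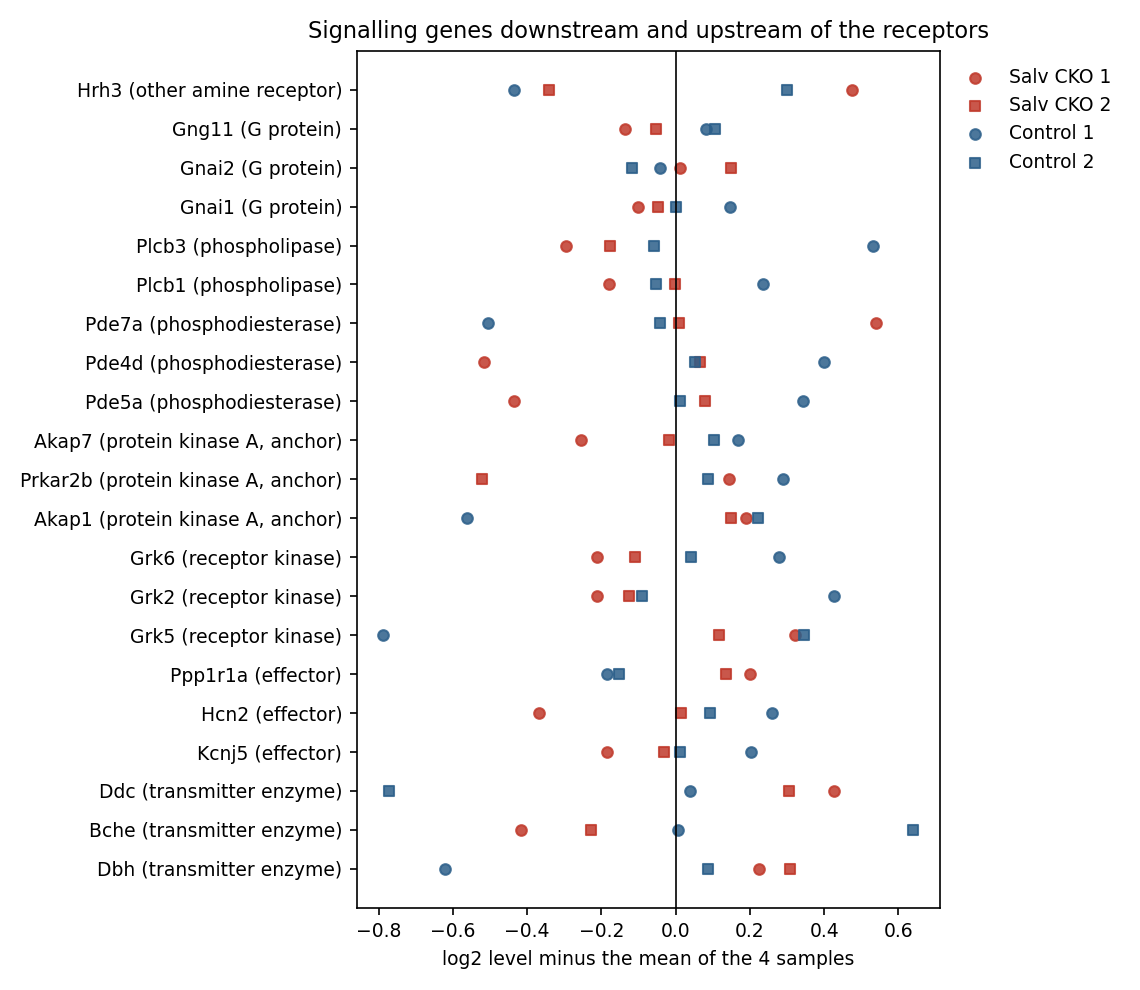
Log2 level of the 21 named signalling genes in each sample, shown as the distance from the mean of the 4 samples, with Salv CKO in red, Control in blue, circles for samples numbered 1 and squares for those numbered 2. For 9 of the 21 genes Control 1 is the farthest sample, and for 8 it is Salv CKO 1.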

How the data were processed

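Total RNA of whole hearts was amplified, labelled with Cy5 and hybridised as 1 sample per array, per the labels' protocols. The deposited values are intensities, whole numbers from -10 to 65474, with a background already subtracted. No source used here gives the scanner, the background method or any normalization by the authors. Array medians ran from 58 to 88, so the arrays were quantile normalized with limma 3.58.1 in R 4.3.3. Values at or below 0 were set to the lowest positive one (0.0833), log2(value + 1) was taken, and the mean of its 3 technical arrays stood for each sample.

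Salv CKO was tested against Control with lmFit and eBayes (degrees of freedom 2 residual, 2.60 prior), with two-sided p-values adjusted by Benjamini-Hochberg over 26423 probes at 0.05. The F test compared the 4 samples over 12 arrays. The number of arrays and samples limits the precision. Probes were named from the platform annotation: 20377 had 1 symbol, 0 several and 6046 none, and 18213 symbols matched RefSeq of GRCm38.p6 directly, 2126 through a synonym held by 1 gene, and 38 had no match.

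The F test ignored the group labels. The alternatives and their effect are given in the closing section. Named were every receptor probe, Sav1 and up to 3 genes of smallest p per signalling list among those above background on all arrays. The gene nearest in centred levels to each receptor above background was named too. Genes named beyond these (Htr5b, Htr2c, Chrm3, Htr7, Gnas, Gnaq, Th, Slc18a2, Chat, Hand2, S100b, Uchl1, Prph, Scgb1a1, Hcn4, Isl1, Shox2, Bmp10, Nppa, Sln, Tagln, Cnn1, Lmod1, Fabp4, Ucp1, Kcnj3 and Pde3a) were chosen after their values were seen. The members and lists were chosen with earlier results of these data known. A gene is given by its brightest probe. Figures were drawn with matplotlib 3.10.9.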

Additional observations from a re-analysis of the deposited data

How the results depend on the processing

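With 2 samples a group and 5 of the 6 receptor probes under the background level, differences between dim signals limit what these data can show. The count of 0 probes past the threshold over all 26423 became 61 in the fit of 12 arrays that takes sample as a random block, 10 with arrays centred on their medians and 11 without normalization. The cause was not tested. In none of these, and in no other setting, did a receptor pass. The median difference over the receptors, 0.071, was -0.0072 and -0.0043 with 16 and 50 added and became 0.29 without normalization and -0.24 without the dimmest 50% of probes, where only Adra1b and Chrm2 remain, and leaving out single samples gave values between -0.21 and 0.22. The count of 3 receptor probes that differ between samples fell to between 1 and 2 when single samples were left out. In these settings the share of all probes that differ fell as well, from 46.2% to between 24.3% and 41.1%.

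Htr4 changed sign with 16 added (-0.0072), with 50 added (-0.0043), without Salv CKO 1 (-0.077) and without Control 2 (-0.33), and lay between -0.33 and 0.47 without single samples. Htr2b changed sign without Control 1 (-0.21) and lay between -0.21 and 0.77 without single samples, and Chrm2 changed sign with the mean over its probes (0.060). Adra1b and Htr1b kept their signs throughout. At the 99th percentile of the nose receptors, 0 receptor probes were above background on all arrays.

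Deviations from the group means correlated at -0.25 between samples of the same number. With so few samples in a group, the deviations within it mirror each other. This value therefore cannot decide whether samples of the same number were paired or handled together. With the number as a replicate block, 0 probes passed, and the Htr1b difference stayed at 1.44. With the crossed pairing, chosen after seeing the data, 0 passed.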

Other observations

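Brown and white fat surrounds the neonatal heart and carries adrenergic receptors of its own, among them Adrb3, which was not analysed here. All 12 fat markers were measured, and their summed normalized intensity was 21459 and 16625 in the Salv CKO samples, against 27904 and 23283 in the controls, without overlap. Ucp1, the uncoupling protein of brown fat, had log2 levels of 11.95 and 9.75 in the Salv CKO samples, against 12.71 and 11.74 in the controls. Of the 12 markers, 2 had a positive difference, against 12835 of all 26423 probes. None passed (limma, 1 at an unadjusted p under 0.05, against 3.96% of all probes). Singly, the groups did not overlap for 8 of the 12, against 30.6% of all probes. The largest part of each sum was Fabp4, at log2 levels of 13.66 and 13.61 in the Salv CKO samples, against 13.91 and 13.79 in the controls.

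Kcnj3, a subunit of the channel that acetylcholine opens through Chrm2, was above background on 7 of 12 arrays. Its log2 levels were 7.62 and 7.62 in the Salv CKO samples, against 6.15 in Control 1 and 7.40 in Control 2, a difference of 0.85 ± 0.46 (SE, limma, adjusted p = 0.999). Pde3a, a cardiac phosphodiesterase, was dim, above background on 1 of 12 arrays, and its log2 level was 6.92 and 6.91 in the Salv CKO samples, against 5.00 in Control 1 and 6.97 in Control 2. Both genes were named after their values were seen.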
